A study of Mus musculus with 12 samples.

Results

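The 33 genes described here were lost from mouse mammary organoids at the highest dose of a WNT-activating drug. They were chosen by their measured values: each had at least 50 raw counts in every vehicle library and at most 5 in every library at 3 µM, out of 25210 genes in the count table. Of 11302 genes with enough vehicle counts, 36 met both limits, and Colgalt2, Cyp26a1 and Col28a1 were left out by name. The fall at 3 µM is therefore a property of the choice and is given without a test. By annotation 32 of the genes code for protein and 1, Ctcflos, is an antisense RNA.

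Organoids from mammary glands of virgin FVB/N female mice aged 8 to 11 weeks were cultured in growth-factor-reduced Matrigel and minimal medium. For 7 days they received DMSO, the vehicle, or CHIR99021 at 1, 1.5 or 3 µM. All 3 cultures received all 4 treatments, which gives 12 libraries of polyadenylated RNA, and the series' design text says that the cultures came from 3 animals. The titles also tag cultures 1, 2 and 3 as med, min and max; what the tags mean is not given in the sources used here, and their part cannot be told apart from that of the animal. No allele or transgene is described for any group, and the age and culture conditions are shared by all groups. Library totals ran from 10.1 M counts (M, mega) in DMSO culture 2 to 24.5 M in culture 2 at 1.5 µM.

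GSK3 tags β-catenin for breakdown, and CHIR99021 inhibits that kinase, so that β-catenin can enter the nucleus and act with TCF/LEF factors on WNT target genes. In the mammary gland WNT signals maintain basal and stem-like epithelial cells. The same signals are known to hold back fat cell formation, which depends on the nuclear receptor PPARγ. Freshly isolated mammary organoids can carry stromal cells such as adipocytes, fibroblasts, macrophages and endothelial cells beside the epithelium. In a bulk library, fewer cells of a type and less RNA per cell cannot be told apart.

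Levels below are CPM, counts per M of a library size adjusted with TMM (trimmed mean of M-values) factors. A share is the CPM of a treated library as a percentage of the DMSO library of the same culture. Counts of 0 were recorded in all 3 libraries at 3 µM for Rasgef1c, Ncan, Fam180a, Ccdc121 and Ppp1r1a. A count of 0 allows up to 3 counts, or 0.193 to 0.235 CPM in these libraries, which for Rasgef1c is 0.169%, 0.253% and 0.445% of the DMSO level in cultures 1, 2 and 3. The limit covers counting error only. At the other end, 7 genes had a library at 3 µM with 5 counts, and the highest share left was 12.1%, for Sema3d in culture 1. The share left at 3 µM was under 1% in every culture for 10 of the 33 genes.

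Just inside the limits lay Cyp4x1, Tmem150c and Camk1g, each with a lowest DMSO count of 51, and Akr1c14, Chrm1 and Edar, each with a highest count of 5 at 3 µM. Just outside lay Cd300lg and Pirb with a lowest DMSO count of 49, Pinc with 46, and Brinp1, Galnt9 and Clstn3 with a highest count of 6 at 3 µM. The limits are on raw counts, so depth enters the choice: with counts scaled to the same total per library, 28 genes met them, of which 12 are among the 33.

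The genes were lost at different doses. At 1 µM, 10 of the 33 were already below 50% of their own DMSO library in all 3 cultures, against 0.575% of the 11302 genes with at least 50 counts in each DMSO library. A further 18 were first below 50% in all cultures at 1.5 µM, which makes 28 against 6.52% of those genes. The other 5, Sema3d, Fam180a, Edar, Amy1 and Tmem150c, were not below 50% in all cultures until 3 µM. These counts share the DMSO libraries with the rule that chose the genes, so the DMSO side of each share had been chosen to reach 50 counts. Without culture 1 the count at 1 µM was 18 in place of 10. The limit of 5 counts was met in every library at 1.5 µM by 1 gene, Cyp4x1, and at 1 µM by 0.

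**Figure D1:**
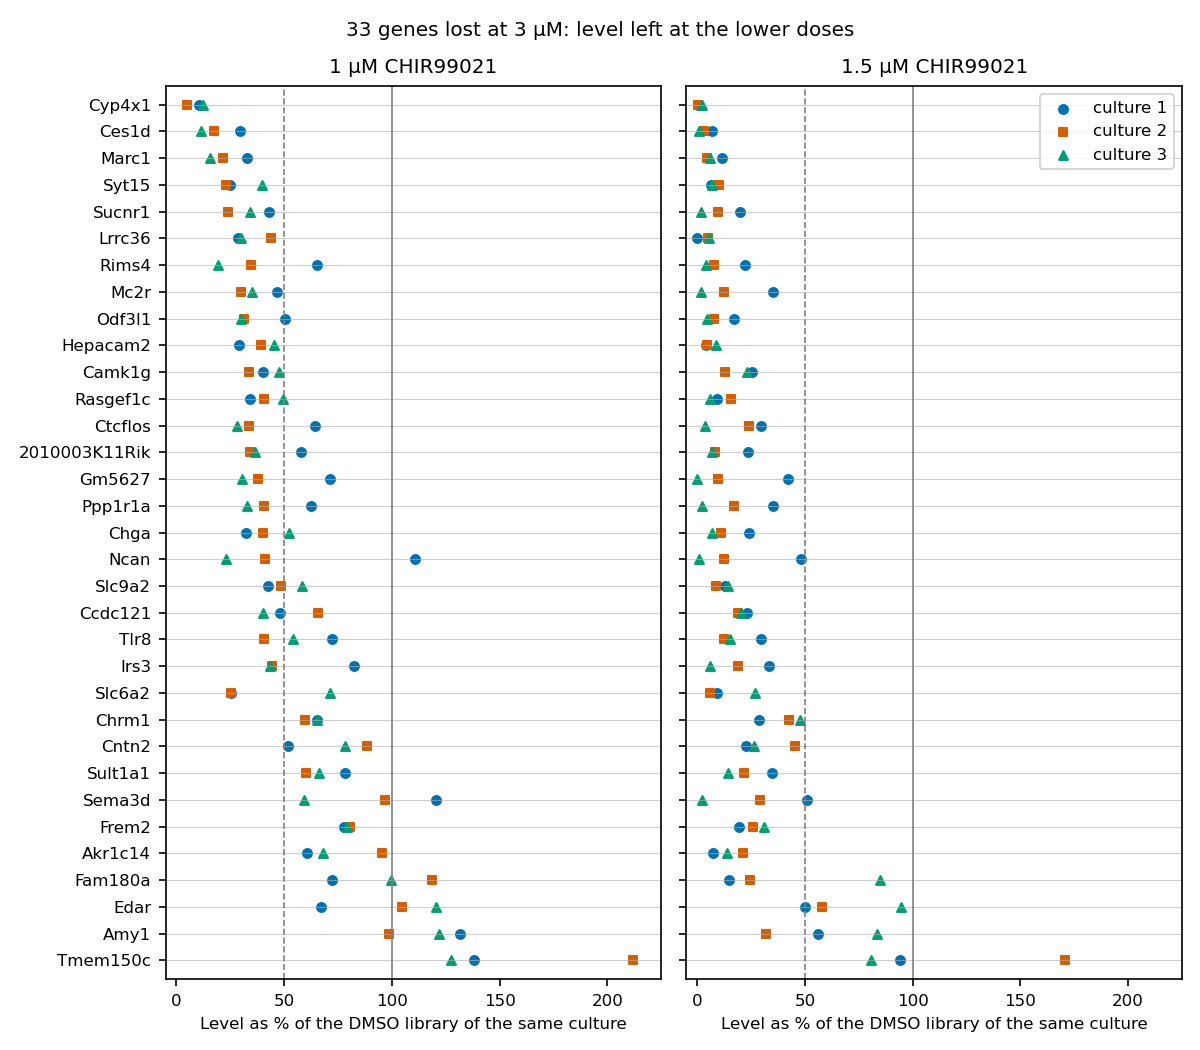
Level of each of the 33 genes at 1 µM (left) and 1.5 µM (right) as a percentage of the DMSO library of the same culture, with 1 point per culture; the dashed line marks 50% and the solid line 100%. Genes are ordered by their mean level at 1 µM, from Cyp4x1 with 8.02% of the DMSO mean to Tmem150c with 152%.

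Enzymes numbered 6, of which 3 were below 50% in all cultures at 1 µM, and among receptor and signalling genes 4 of 9 were. Cyp4x1, a cytochrome P450, had 14.9, 17.2 and 2.75 CPM in DMSO cultures 1, 2 and 3, then 1.57, 0.877 and 0.341 CPM at 1 µM and 0.0637, 0.0768 and 0.0579 CPM at 1.5 µM. Every treated library lay below every DMSO library, although DMSO culture 3 was far below the other two. Its counts were 31, 18 and 6 at 1 µM and 1, 2 and 1 at 1.5 µM, so the lower dose already left little of it. Cyp4x1 overlaps the antisense gene Cyp4x1os, and whether counting used the strand is not given in the sources used here.

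Ces1d, a carboxylesterase that hydrolyses stored triacylglycerol in fat and liver, had 39.2, 95.4 and 30.2 CPM in DMSO, 11.6, 16.6 and 3.47 CPM at 1 µM and 2.61, 3.07 and 0.174 CPM at 1.5 µM. The groups did not overlap, and culture 3 kept the smallest share at both doses, 11.5% and 0.575%. Counts may be split with other members of the Ces1 family. Marc1, a reductase of the outer mitochondrial membrane, had 5.60, 16.2 and 4.04 CPM in DMSO, 1.83, 3.51 and 0.625 CPM at 1 µM and 0.637, 0.768 and 0.232 CPM at 1.5 µM. Its DMSO level was highest in culture 2, as for Ces1d.

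The other enzymes went later. Akr1c14, an aldo-keto reductase of steroid metabolism, kept 60.6%, 95.5% and 68.1% of its DMSO level at 1 µM and 7.31%, 21.1% and 13.7% at 1.5 µM. Sult1a1, a sulfotransferase for phenols, kept 60.2 to 78.4% and then 14.2 to 34.8%. Amy1, an amylase, was close to its DMSO level at 1 µM, with 132%, 98.5% and 122%, and kept 55.9%, 31.8% and 83.3% at 1.5 µM. Amy1 overlaps Rnpc3 on the same strand, and Akr1c14 and Amy1 have close paralogs, so their counts are uncertain.

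Receptors and signalling proteins made up 9 of the 33. Rasgef1c, which carries a Ras exchange factor domain, had the highest level per kilobase of exon in DMSO (24.5 CPM per kb), just above Ces1d (23.2), with the others between 0.843 and 8.60. Rasgef1c had 139, 76.1 and 46.5 CPM in DMSO, 47.6, 31.0 and 23.1 CPM at 1 µM and 12.5, 11.9 and 2.67 CPM at 1.5 µM. The order of the cultures was the same at each dose, with 34.2%, 40.8% and 49.6% left at 1 µM and 8.95%, 15.6% and 5.73% at 1.5 µM.

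Sucnr1, the receptor for succinate, had 4.49, 8.43 and 3.18 CPM in DMSO, 1.93, 2.0 and 1.08 CPM at 1 µM and 0.891, 0.807 and 0.0579 CPM at 1.5 µM. Mc2r, the receptor for adrenocorticotropic hormone in the adrenal gland and in mouse fat cells, had 3.82, 8.12 and 3.39 CPM in DMSO, 1.78, 2.44 and 1.19 CPM at 1 µM and 1.34, 0.999 and 0.0579 CPM at 1.5 µM. Irs3, an insulin receptor substrate of rodent fat cells, had 6.71, 18.2 and 9.69 CPM in DMSO, 5.53, 8.09 and 4.20 CPM at 1 µM and 2.23, 3.46 and 0.579 CPM at 1.5 µM. All 3 were highest in DMSO culture 2 and kept their smallest share in culture 3 at 1.5 µM, which was 1.82%, 1.71% and 5.98%.

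Tlr8, an endosomal RNA sensor of myeloid cells, had 4.09, 21.2 and 22.7 CPM in DMSO and kept 72%, 40.4% and 54.0% at 1 µM and 29.6%, 12.5% and 15.3% at 1.5 µM. Chrm1, a muscarinic acetylcholine receptor, was among the most even genes across DMSO cultures (11.4, 9.34 and 10.2 CPM) and kept 59.5 to 65.3% at 1 µM and 28.5 to 47.8% at 1.5 µM. Edar, the ectodysplasin receptor of hair follicles and other skin appendages, had 12.8, 7.41 and 15.3 CPM in DMSO, 8.58, 7.75 and 18.5 CPM at 1 µM and 6.37, 4.30 and 14.5 CPM at 1.5 µM. Its groups overlapped through 1.5 µM, where the mean was 71.0% of the DMSO mean, and at 3 µM its counts were 5, 3 and 2. Of the remaining receptor and signalling genes, the protein phosphatase inhibitor Ppp1r1a had a mean at 42.8% of DMSO at 1 µM and the calmodulin-dependent kinase Camk1g at 38.8%.

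Adhesion, matrix and secreted proteins numbered 6. Frem2, a basement membrane protein of the Fraser complex that joins epithelium to mesenchyme, had 87.5, 47.8 and 22.3 CPM in DMSO, 68.1, 38.5 and 17.7 CPM at 1 µM and 17, 12.4 and 6.89 CPM at 1.5 µM. The share left at 1 µM was nearly the same in all cultures (77.9%, 80.6% and 79.2%). Cntn2, an axonal adhesion molecule anchored by a lipid, had 101, 44.2 and 30.2 CPM in DMSO, 52.0, 39.0 and 23.6 CPM at 1 µM and 22.5, 20.1 and 8.00 CPM at 1.5 µM. Both were highest in culture 1 at each of these doses.

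Hepacam2, an adhesion protein of the immunoglobulin superfamily, had the most even DMSO levels of the 33 (23.8, 21.3 and 20.4 CPM). It fell to 6.96, 8.33 and 9.26 CPM at 1 µM and 0.955, 0.999 and 1.80 CPM at 1.5 µM, with no overlap between groups. Ncan, the brain proteoglycan neurocan, had 9.02, 38.3 and 13.1 CPM in DMSO, with 111%, 40.9% and 23.0% of these left at 1 µM, and 4.33, 4.76 and 0.116 CPM at 1.5 µM. At 1 µM culture 1 had not lost Ncan while culture 3 had the smallest share.

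Sema3d, a secreted guidance protein, had 3.24, 6.30 and 34.2 CPM in DMSO, 3.91, 6.09 and 20.2 CPM at 1 µM and 1.66, 1.84 and 0.811 CPM at 1.5 µM. Its DMSO levels spread most of the 33, 10.5 times between the highest and the lowest, and culture 3 went from the highest level to the lowest between 1 and 1.5 µM. Fam180a, a little-studied gene placed here as encoding a predicted secreted protein, had 17.7, 9.14 and 2.80 CPM in DMSO, 12.7, 10.8 and 2.78 CPM at 1 µM and 2.61, 2.23 and 2.38 CPM at 1.5 µM. Culture 3 started low and kept 84.8% at 1.5 µM, and no library at 3 µM had a count.

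Genes of granules and vesicle release numbered 3. Syt15, of the synaptotagmin family, kept 24.7%, 22.9% and 39.8% at 1 µM and 6.42%, 9.89% and 7.05% at 1.5 µM. Rims4, related to scaffold proteins of the presynaptic active zone, kept 65.3%, 34.5% and 19.3% and then 22.3%, 7.68% and 4.27%. Chga, the granule protein chromogranin A, kept 32.2%, 40.2% and 52.5% and then 24.2%, 11.1% and 7.05%.

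Of 3 transporters and membrane proteins, Slc9a2, a sodium and proton exchanger, kept 42.4%, 48.6% and 58.3% at 1 µM and 12.8%, 8.66% and 14.2% at 1.5 µM. The noradrenaline transporter Slc6a2 kept 25.4%, 25.3% and 71.3% and then 9.10%, 5.97% and 27.0%, with culture 3 at the highest level up to 1.5 µM. Tmem150c, a membrane protein also called tentonin, had 8.58, 5.18 and 7.81 CPM in DMSO, 11.8, 11.0 and 9.94 CPM at 1 µM and 8.09, 8.84 and 6.32 CPM at 1.5 µM. Its level at 1 µM lay above every DMSO library, at 1.5 µM the groups overlapped, and at 3 µM its counts were 1, 1 and 5. Tmem150c was the 1 gene above 50% of its own DMSO library in all cultures at 1.5 µM.

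**Figure D2:**
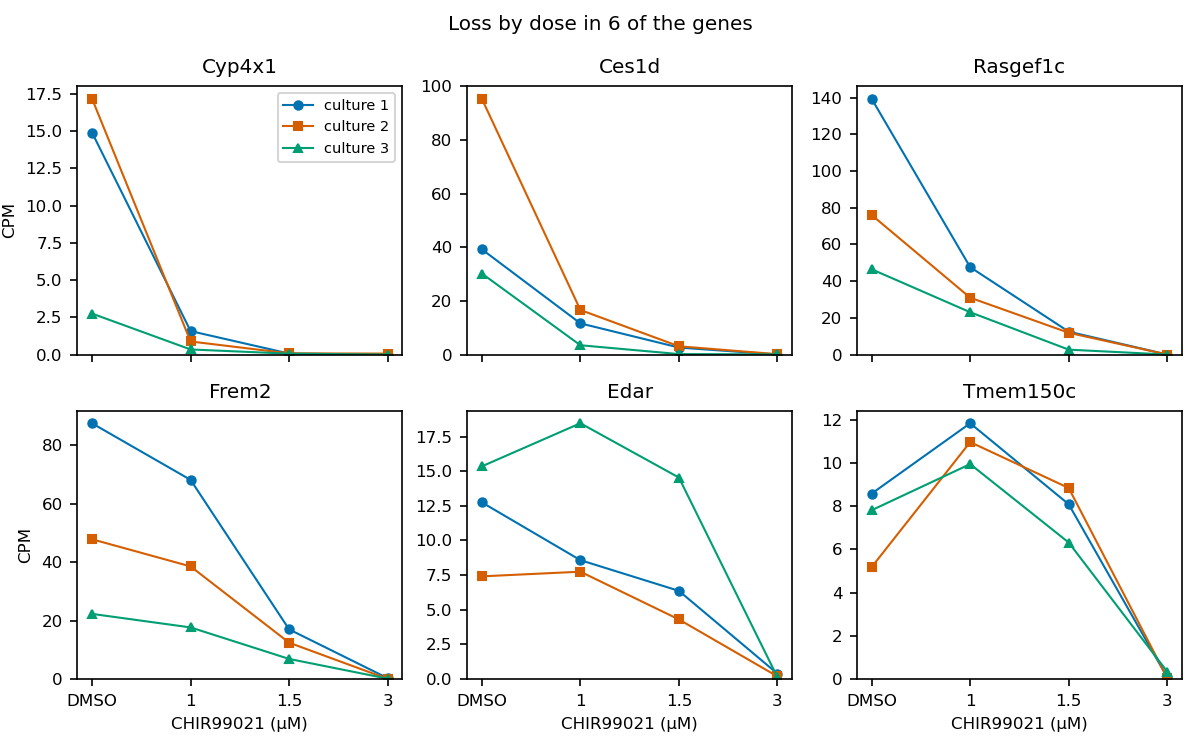
CPM of 6 of the genes in each library (vertical axes start at 0 and differ between panels) by treatment, with doses spaced evenly and 1 line per culture. Cyp4x1 and Ces1d fell most at 1 µM, Rasgef1c fell at each dose, Frem2 kept 77.9 to 80.6% at 1 µM, and Edar and Tmem150c kept 71.0% and 108% of the DMSO mean at 1.5 µM.

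The remaining 6 genes are little characterised. Their means ranged from 32.3% to 49.3% of DMSO at 1 µM and from 4.94% to 20.8% at 1.5 µM. Lrrc36, which holds leucine-rich repeats, had 3.91, 6.09 and 25.5 CPM in DMSO and 0, 0.307 and 1.45 CPM at 1.5 µM. Odf3l1, of a family of sperm tail proteins, kept 50.4%, 31.5% and 30.1% at 1 µM. Ccdc121 kept 47.9%, 65.5% and 40.1%, and the others in this group are Gm5627, 2010003K11Rik and Ctcflos.

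The step from 1 to 1.5 µM compares 6 libraries that the choice of genes did not use, although the DMSO and 3 µM libraries enter the estimate of spread in the fit. All 33 genes were lower at 1.5 than at 1 µM in all 3 cultures, with a median log2 fold change of −1.69 against −0.0053 over all 15316 genes tested. No share over all genes is given for being lower in all 3 cultures. Every library at 1.5 µM lay below every library at 1 µM for 22 of the 33, against 11.9% of all genes tested. In edgeR's quasi-likelihood test with Benjamini-Hochberg adjustment over all genes, 5 of the 33 were called lower, against 0.992% of all genes: Slc9a2 with a log2 fold change of −2.07 ± 0.245 (SE, adjusted p = 0.00393), Hepacam2 with −2.71 ± 0.372 (adjusted p = 0.00653), Sult1a1 with −1.57 ± 0.354 (adjusted p = 0.0319), Syt15 with −1.71 ± 0.395 (adjusted p = 0.0349) and Ccdc121 with −1.25 ± 0.285 (adjusted p = 0.0442). With the culture as a replicate block, 24 were called lower, against 10.5% of all genes. DESeq2 called 15, against 557 over all genes. It was run on the unfiltered table of 25210 genes, so the 15316 are not its base. No share over all genes is given for this or the later DESeq2 counts.

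The cultures are animals that received every dose, so the block compares libraries of the same animal. Among its further calls were Frem2 with a log2 fold change of −1.67 ± 0.15 (edgeR adjusted p = 0.00055, without the block 0.114), Akr1c14 with −2.35 ± 0.327 (adjusted p = 0.00245, without the block 0.122), Cyp4x1 with −3.69 ± 0.545 (adjusted p = 0.00301, without the block 0.0518) and Ces1d with −2.48 ± 0.410 (adjusted p = 0.00473, without the block 0.126). The 9 genes not called with the block were Ncan, Edar, Fam180a, Gm5627, Slc6a2, Tmem150c, Ppp1r1a, Mc2r and Ctcflos, with fold changes on the log2 scale from −1.72 to −0.49. The smallest were Edar with −0.53 ± 0.254 (edgeR adjusted p = 0.170) and Tmem150c with −0.49 ± 0.256 (adjusted p = 0.205). Without the block, Hepacam2 and Slc9a2 were called when any 1 of the 12 libraries was left out, and the number called was 2 or 3 without DMSO culture 1 or without any library at 1 or 1.5 µM, and 7 without culture 3 at 3 µM. Over all genes the fits with 2 or 3 called 18 to 137 lower, and the fit with 7 called 396. With the block the number was 12, 2 and 26 when culture 1, 2 or 3 was left out of all groups. Over all genes the same block fits called 338, 38 and 2157 lower.

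**Figure D3:**
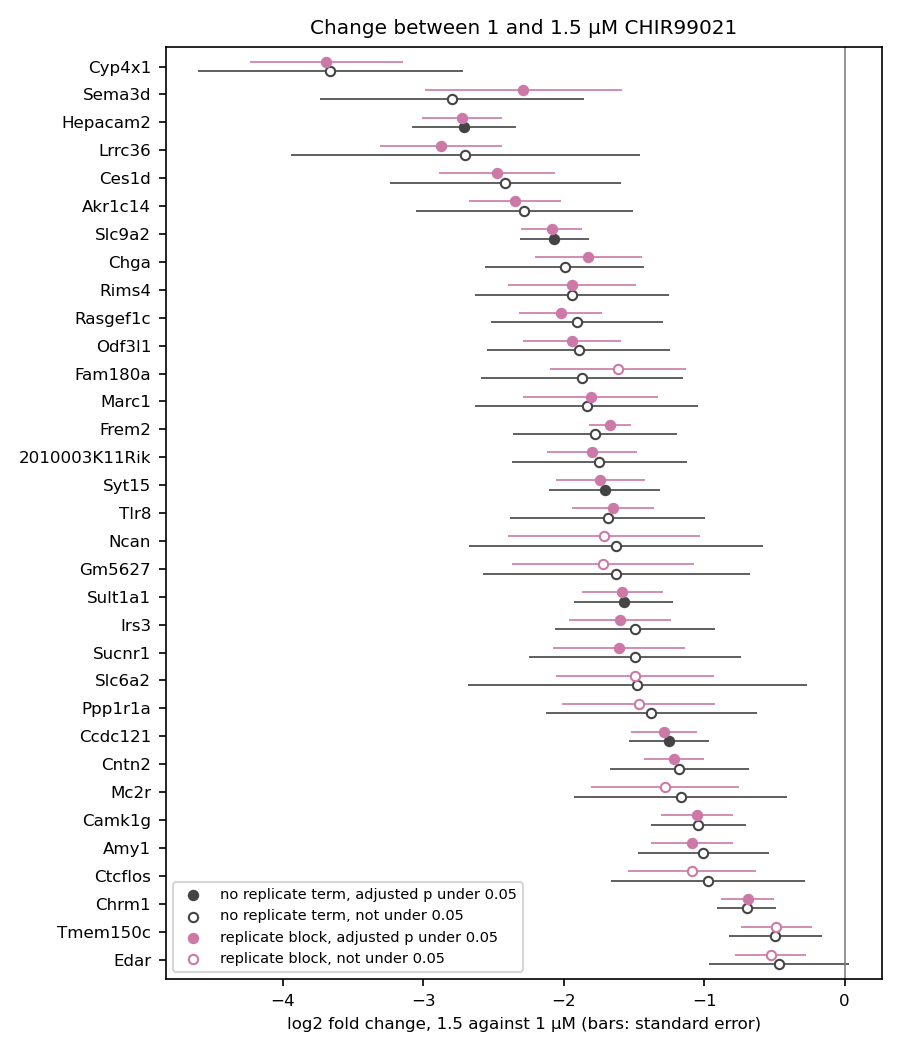
log2 fold change of each gene from 1 to 1.5 µM with its standard error, in the edgeR fit without a replicate term (grey) and with the replicate block (pink); filled points have an adjusted p under 0.05. All 33 points lie below 0 in both fits, and the standard error of all 33 is smaller with the block.

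The comparisons with DMSO share their vehicle libraries with each other and with the rule that chose the genes. At 1 µM, 31 of the 33 had a negative log2 fold change, with a median of −1.15 against −0.0046 over all genes tested, and the exceptions were Tmem150c (0.60) and Amy1 (0.20). For 14 genes every library at 1 µM lay below every DMSO library, against 8.27% of all genes, and for Tmem150c every one lay above. edgeR's quasi-likelihood test called 0 of the 33, against 0.0522% of all genes, with 12 at an unadjusted p under 0.05. No share over all genes is given for those 12. DESeq2 called 6, against 149 over all genes. With the replicate block 13 were called lower, against 3.06% of all genes, led by Cyp4x1 with a log2 fold change of −3.56 ± 0.316 (edgeR adjusted p = 0.00234), Syt15 with −1.84 ± 0.259 (adjusted p = 0.0102) and Ces1d with −2.48 ± 0.357 (adjusted p = 0.0113). Left out of all groups in turn, cultures 1, 2 and 3 changed that 13 to 1, 0 and 12. Over all genes these fits called 28, 0 and 951 lower.

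At 1.5 µM, 26 of the 33 were called lower than DMSO by edgeR, against 11.8% of all genes, with a median log2 fold change of −2.69. DESeq2 called 29, against 2556 over all genes. For 29 genes every library lay below every DMSO library, against 20.7% of all genes. Cyp4x1 had the lowest log2 fold change, −7.28 ± 0.946 (edgeR adjusted p = 0.000754), and Slc9a2 the lowest adjusted p (−3.10 ± 0.251, adjusted p = 9.01e-05). The block called 31, against 24.3% of all genes, and left Edar (−0.61 ± 0.257, edgeR adjusted p = 0.0812) and Tmem150c (0.11 ± 0.262, adjusted p = 0.759) not called. Of the 26 calls, 16 were kept when any 1 library was left out. Cntn2 and Frem2 were lost without DMSO culture 1 (edgeR adjusted p = 0.0849 and 0.0785), and Lrrc36 and Sema3d without DMSO culture 3 (0.115 and 0.127).

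The vehicle cultures differed from each other, and the genes fell into 3 sets by the DMSO culture in which they were highest. This sorting was made after the values had been seen and is not tested. Culture 2 was highest for 18 of the 33 genes (54.5%), against 34.5% of the other 11269 genes with at least 50 counts in each DMSO library. Culture 2 is also the shallowest DMSO library. Of 26 genes whose lowest DMSO count was 50 to 100, 15 were highest in culture 2, against 27.5% of the other 1363 genes in that range. The rule used the same DMSO libraries, so these counts are not independent of the choice. Without DMSO culture 2, 57 genes met the limits in place of 33.

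The 18 genes highest in culture 2 include Ces1d, Irs3, Marc1, Sucnr1 and Mc2r, beside Cyp4x1, Ncan, Rims4 and Syt15. At 1.5 µM these 18 had median shares of 24.3%, 11.1% and 4.50% in cultures 1, 2 and 3. In culture 3 at that dose 13 of the 33 genes were at 5 counts or fewer, and all 13 are among these 18. The 8 genes highest in culture 1, with Rasgef1c, Cntn2, Frem2, Hepacam2, Chrm1 and Slc9a2 among them, had median shares of 17.1%, 25.2% and 28.7%. The 7 highest in culture 3, with Tlr8, Sema3d, Edar, Lrrc36 and Chga among them, had 24.2%, 12.5% and 15.3%.

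**Figure D4:**
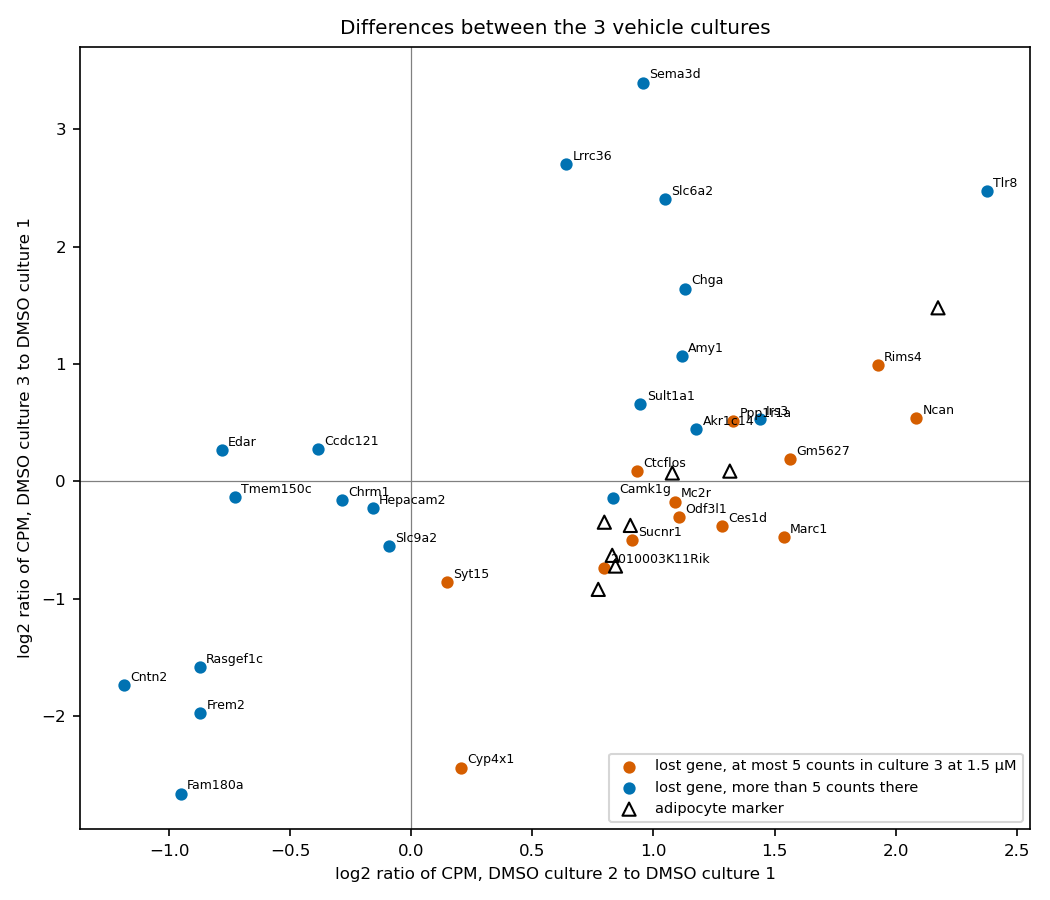
log2 ratio of CPM between DMSO cultures, culture 2 to 1 across and culture 3 to 1 upward, for the 33 genes and 8 adipocyte markers (triangles). Genes with 5 counts or fewer in culture 3 at 1.5 µM (orange) lie to the right of 0, as do all 8 adipocyte markers. Other genes lie there too, among them Tlr8, Sema3d, Lrrc36, Slc6a2 and Chga, which were highest in culture 3.

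A list of 8 adipocyte markers that holds none of the 33 genes was read beside them (Adipoq, Plin1, Cidec, Lep, Fabp4, Pparg, Car3 and Retn). All 8 were highest in DMSO culture 2. Their summed level was 6122, 11740 and 4596 CPM in DMSO, 52.9%, 38.1% and 30.9% of that at 1 µM, 19.1%, 12.8% and 4.32% at 1.5 µM and 2.14%, 2.11% and 0.823% at 3 µM. Most of the sum was Fabp4, with 3645, 6478 and 2356 CPM in DMSO. At 3 µM Fabp4 had 103, 193 and 34.3 CPM of a sum of 131, 248 and 37.8 CPM. The order of the cultures in this sum at 1.5 µM is that of the 18 genes highest in culture 2. It is not particular to them. Medians over all 33 genes had the same order (23.1%, 12.5% and 7.05%), as did the low sum of lymphocyte markers (46.2%, 28.4% and 15.1%). Adiponectin (Adipoq), the hormone of mature fat cells, had 512.5, 890.5 and 402.9 CPM in DMSO and 8.47, 16.8 and 0.690 CPM at 3 µM. At 3 µM edgeR called 8 of 8 lower, against 27.7% of all genes, with a median log2 fold change of −5.85. At 1.5 µM it called 5 (with the block 8) and at 1 µM 0 (with the block 4), and between 1 and 1.5 µM 0 (with the block 7), with a median log2 fold change of −1.63. The part of fat cell loss in the fall of the 33 genes was not tested.

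**Figure D5:**
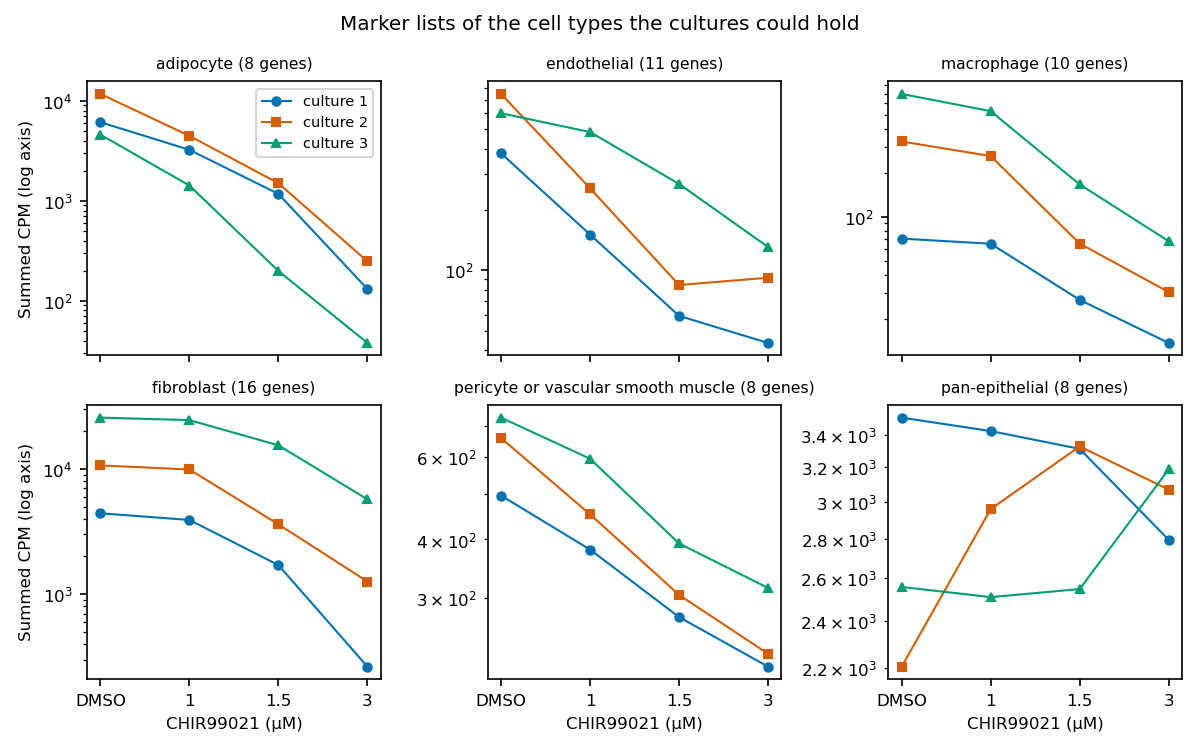
Summed CPM of 6 marker lists in each library (log axes, which differ between panels) by treatment, with doses spaced evenly and 1 line per culture. The adipocyte sum fell to between 0.823 and 2.14% of its own DMSO library at 3 µM, while the pan-epithelial sum stayed between 79.6 and 139%.

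The summed levels of other stromal marker lists kept larger shares than the adipocyte sum at 3 µM in every culture, but not at the lower doses throughout. Of 10 macrophage markers, 9 were highest in DMSO culture 3, and their sum was 38.0%, 19.9% and 24% of DMSO at 1.5 µM, where Tlr8 kept 29.6%, 12.5% and 15.3%, and 19.2%, 9.28% and 9.79% at 3 µM. Of 16 fibroblast markers, 15 were highest in culture 3, and their sum was 38.6%, 33.9% and 60.1% at 1.5 µM and 5.97%, 11.8% and 22.3% at 3 µM. Sema3d at 1.5 µM kept 51.0%, 29.3% and 2.37% in cultures 1, 2 and 3. Endothelial markers (11 genes, 9 highest in culture 2) kept 39.6%, 34.1% and 80.7% at 1 µM and 15.6%, 11.3% and 44.6% at 1.5 µM, below the adipocyte shares in cultures 1 and 2 at both doses, and 11.5 to 21.7% at 3 µM. At 3 µM pericyte or vascular smooth muscle markers kept 34.6 to 43.3%. Lymphocyte markers summed to at most 6.52 CPM in any DMSO library, and 8 of the 10 were at 0 in at least 1 DMSO library and all 10 in at least 1 at 3 µM. What these cells contribute to single genes of the 33 was not tested.

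Over all genes tested, 27.7% were called lower and 29.9% higher at 3 µM by edgeR (with the block 34.8% and 34.1%), and several of the lists lie near these shares. The summed level of pan-epithelial markers was 79.6 to 139% of DMSO at 3 µM. Pan-epithelial markers were highest in DMSO culture 1 for 7 of 8 genes. Culture 3 was highest for 6 of 10 basal or myoepithelial markers and 7 of 10 luminal hormone-sensing markers. It was also highest for 6 of 10 luminal progenitor or alveolar markers. Of the 33 genes, 8 were highest in culture 1, against 36.0% of other genes with at least 50 counts in each DMSO library. At 3 µM edgeR called 2 of the 8 pan-epithelial markers lower and 4 higher. Of 10 basal or myoepithelial markers 6 were called lower and 4 higher at 3 µM, while their summed level was 531 to 1407% of DMSO. Acta2, Myh11, Cnn1, Mylk and Tagln of these are also in a list of smooth muscle contractile genes, whose sum was 13.0 to 14.2% of DMSO. For luminal hormone-sensing markers the counts were 3 lower and 4 higher of 10, and for luminal progenitor or alveolar markers 2 lower and 1 higher of 10 (with the block 3 and 3). At 3 µM the edgeR calls were 4 lower of 16 for fibroblast (with the block 14 and 1 higher), 7 of 10 for macrophage, 10 of 11 for endothelial, 5 of 7 for pericyte or vascular smooth muscle and 1 of 1 for lymphocyte markers, with none higher. Median log2 fold changes at 3 µM were −1.72 for fibroblast, −4.44 for macrophage, −2.84 for endothelial, −2.36 for pericyte or vascular smooth muscle, −4.30 for basal or myoepithelial, 0.12 for luminal hormone-sensing, −0.28 for luminal progenitor or alveolar and 0.45 for pan-epithelial markers, against −0.030 over all genes tested.

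Among pathway and marker lists, 2 hold a gene of the 33. Ncan is in the Schwann cell or glia list, of which 8 genes were tested. At 3 µM Sox10 and Mbp of that list were called higher (log2 fold changes of 0.99 and 0.77, edgeR adjusted p = 6.98e-05 and 0.00023), and the other 6, Ncan included, lower. The summed level of the list was 120 to 142% of DMSO at 3 µM. Sema3d is in the list of semaphorin, slit and netrin guidance genes, of which 9 of 21 were called lower and 5 higher at 3 µM. Against 27.7% lower and 29.9% higher over all genes, other lists at 3 µM gave 7 lower and 3 higher of 13 for the Notch pathway, 2 and 0 of 9 for Hedgehog (with the block 2 and 1), 6 and 4 of 19 for BMP and TGF-beta ligands and antagonists, and 7 and 0 of 15 for IGF and PDGF signalling (with the block 10 and 1). The counts were 9 and 0 of 15 for complement, 12 and 0 of 20 for small leucine-rich proteoglycans and elastic fibre, 9 and 0 of 10 for smooth muscle contractile genes and 7 and 3 of 13 for the prolactin and progesterone response. The median log2 fold changes were −2.13 for the Schwann cell or glia list, −1.07 for guidance, −0.82 for Notch, −0.086 for Hedgehog, −0.43 for BMP and TGF-beta, −1.54 for IGF and PDGF, −2.04 for complement, −3.17 for proteoglycans and elastic fibre, −4.03 for smooth muscle and −0.58 for the prolactin and progesterone response. The Schwann cell and guidance values include Ncan and Sema3d, whose fall at 3 µM the choice fixed.

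Promoter sequence was read for the genes because they were lost together under a drug that acts through TCF/LEF factors, and because PPARγ belongs to the receptors that bind AGGTCA. RefSeq promoter windows of 300 bases (GRCm38.p6) were matched for 22 of the 33 genes, 27 windows in all. The TCF/LEF core CTTTGA, on either strand, was in windows of 7 genes (7 of 27 windows), against 16.0% of all 32851 windows. The receptor site AGGTCA, on either strand, was in windows of 6 genes (8 of 27 windows, of which 3 overlapping ones belong to Tmem150c), against 16.3%. In Tmem150c the site at −36 of a window and that at −188 of the next are the same bases, counted in both windows. In the Ctcflos window the motifs overlap each other. The letters alone show no binding. The 250 bases before the start are printed for Frem2, Edar and Ncan, which hold the TCF/LEF core, and for Irs3, which holds AGGTCA. Frem2 and Ncan were first below 50% in all cultures at 1.5 µM and Edar not until 3 µM. Capitals mark the motif, which on the opposite strand reads TCAAAG, and all 4 genes lie on the minus strand, with the sequence given 5′ to 3′ on that strand.
Frem2, chr3:53657356-53657605, TCF/LEF cores starting at −29 and −20: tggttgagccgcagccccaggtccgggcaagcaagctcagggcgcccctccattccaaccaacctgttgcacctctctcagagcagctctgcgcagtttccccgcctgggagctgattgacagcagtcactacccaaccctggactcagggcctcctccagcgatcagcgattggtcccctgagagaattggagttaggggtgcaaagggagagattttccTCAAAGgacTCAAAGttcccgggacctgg
Edar, chr10:58675697-58675946, TCF/LEF core starting at −233: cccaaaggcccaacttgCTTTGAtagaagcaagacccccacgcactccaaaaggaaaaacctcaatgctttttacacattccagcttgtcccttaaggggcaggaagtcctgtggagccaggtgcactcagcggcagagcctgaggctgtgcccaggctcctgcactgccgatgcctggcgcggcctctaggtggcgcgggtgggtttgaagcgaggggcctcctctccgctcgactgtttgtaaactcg
Ncan, chr8:70120845-70121094, TCF/LEF core starting at −138: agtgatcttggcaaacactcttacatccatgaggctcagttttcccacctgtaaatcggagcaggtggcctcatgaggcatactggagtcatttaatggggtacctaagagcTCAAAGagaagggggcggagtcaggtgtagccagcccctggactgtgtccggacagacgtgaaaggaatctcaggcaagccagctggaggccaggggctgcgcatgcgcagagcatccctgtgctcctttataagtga
Irs3, chr5:137645715-137645964, AGGTCA starting at −39: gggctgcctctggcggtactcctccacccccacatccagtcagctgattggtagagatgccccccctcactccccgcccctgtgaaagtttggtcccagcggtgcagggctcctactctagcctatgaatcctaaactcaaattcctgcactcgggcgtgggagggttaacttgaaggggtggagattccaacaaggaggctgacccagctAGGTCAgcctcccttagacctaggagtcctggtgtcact
None of the 7 genes with a TCF/LEF core was below 50% in all cultures at 1 µM. Of the genes that were, Ces1d, Cyp4x1, Lrrc36, Marc1 and Mc2r had no promoter window, so no core could be found in them. Whether the core goes with the dose of loss was not tested. Ctcflos, Gm5627, Ncan, Sult1a1 and Frem2 were first below 50% in all cultures at 1.5 µM. Edar and Amy1 were not until 3 µM. At 1 µM Ctcflos, with 3 cores, was at 39.9% of its DMSO mean, Gm5627 at 42.7%, Ncan at 47.4%, Sult1a1 at 66.3%, Frem2 at 78.9%, Edar at 98.0% and Amy1 at 114%.

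In the deposited coordinates Rasgef1c (ENSMUSG00000020374) lies on chromosome 11 from 49901835 to 49980994, Frem2 (ENSMUSG00000037016) on chromosome 3 from 53513939 to 53657355 and Ces1d (ENSMUSG00000056973) on chromosome 8 from 93166068 to 93197838. Cyp4x1 (ENSMUSG00000047155) lies on chromosome 4 from 115106323 to 115134281 and Edar (ENSMUSG00000003227) on chromosome 10 from 58600789 to 58675654. Overlap with a gene on the opposite strand touches 8 of the 33, among them Sult1a1 (Sgf29), Tmem150c (Tmem150cos) and Ctcflos (Ctcfl), and their counts are uncertain to that extent.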

How the data were processed

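The labels describe 12 libraries of polyadenylated RNA in 4 groups of 3 cultures. The deposited raw count table gives whole-number counts per Ensembl gene, and the authors also deposited log2 values, which equal log2 of counts scaled to a common total plus 1 and were not used further. The submitters' processing notes name TopHat2 2.1, Bowtie 1.1.0, HTSeq, DESeq2 and GRCm38 (mm10), without roles; the strand setting and annotation release are not given in the sources used here. Gene overlaps come from GENCODE M21.

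Counts were filtered with filterByExpr (15316 genes kept, all 33 among them), scaled by TMM and fitted over all 12 libraries with glmQLFit (robust) and glmQLFTest, two-sided (edgeR 4.0.16, R 4.3.3), adjusted by Benjamini-Hochberg over all genes at 0.05. DESeq2 1.42.0, library size only, no filter, only the groups compared, a replicate block and each library left out were the alternatives. The DESeq2 fit used the unfiltered count table. The script was tested on simulated data. The series' design text gives the culture numbers as cultures from individual animals, and the numbers were taken to pair the libraries. Deviations from group means correlated from 0.177 to 0.840 in 18 same-culture pairs, against a median of −0.212 in 36 other pairs, and the block lowered the common biological coefficient of variation from 0.305 to 0.156.

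The genes and the 20 lists were chosen with earlier results of these data known. Genes are named where they are in a list, are among the 10 highest in DMSO, the 8 lowest or highest in share left at 1 or 1.5 µM, the 5 most or least even across DMSO cultures, or the 3 nearest a limit of the rule. Irs3, Ppp1r1a, Chga, Slc6a2, Gm5627, 2010003K11Rik and Ctcflos fall outside this and were named after their values were seen, to account for all genes. CPM and percentages were computed with Python 3.11.15.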

Additional observations from a re-analysis of the deposited data

How the results depend on the processing

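The number of genes that met the rule was 76 with at least 30 counts in DMSO, 8 with at least 100, 15 with at most 2 counts at 3 µM and 75 with at most 10, and 34 to 57 with 1 library left out, against 33. Genes below 50% of DMSO at 1 µM numbered 21 by group means, 1 at a limit of 25% and 11 to 18 with 1 culture left out, against 10. At 1.5 µM the 28 became 15 at the limit of 25%. The 1 gene above 50% in all cultures at 1.5 µM became 2 with library size only, 3 by group means, 4 at the limit of 25% and 1 to 2 with 1 culture left out.

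Genes called lower at 1 µM against DMSO numbered 13 with the replicate block, 6 in DESeq2 and 0 to 1 with 1 library left out, against 0. Over all genes the same settings gave 469, 149 and 1 to 13, against 8. At 1.5 against 1 µM they numbered 24 with the replicate block, 15 in DESeq2, 2 with no filter and 2 to 7 with 1 library left out, against 5. The replicate block with 1 culture left out of all groups, an alternative chosen after seeing the data, gave 0 to 12 at 1 µM and 2 to 26 at 1.5 against 1 µM. Over all genes it gave 0 to 951 and 38 to 2157. At 1.5 µM against DMSO every alternative stayed within 1.5 times the 26, with 18 to 26 when 1 library was left out. Over all genes the fits with 1 library left out gave 925 to 2466, against 1813.

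No gene called in a comparison changed direction in it under the alternatives run. Log2 fold changes that turned sign were those of genes not called. At 1 µM against DMSO, Edar was at 0.031 with library size only, 0.020 without DMSO culture 1, 0.17 without DMSO culture 3, 0.14 and 0.19 without culture 1 or 2 at 1 µM and 0.17 with the block without culture 1. Without DMSO culture 1, Cntn2 was at 0.042, Frem2 at 0.25, Fam180a at 0.57 and Amy1 at −0.089. Akr1c14 was at 0.056 without DMSO culture 2 and 0.013 without culture 1 at 1 µM. Sema3d was at 1.06 without DMSO culture 3 and 0.13 with the block without culture 3. Without culture 3 at 1 µM, Frem2 was at 0.021, Fam180a at 0.25 and Amy1 at −0.015, and with the block without culture 1 Fam180a was at 0.16. Tmem150c at 1.5 µM against DMSO was at −0.11 without DMSO culture 2, −0.0029 without culture 2 at 1.5 µM and −0.19 with the block without culture 2. At 1.5 against 1 µM, Edar was at 0.039 and Slc6a2 at 0.48 without culture 3 at 1 µM. With any 1 library left out, these genes ranged at 1 µM against DMSO from −0.95 to 0.042 (Cntn2), −0.90 to 0.25 (Frem2), −1.54 to 1.06 (Sema3d), −0.54 to 0.19 (Edar), −0.64 to 0.57 (Fam180a), −0.999 to 0.056 (Akr1c14) and −0.089 to 0.43 (Amy1), and at 1.5 against 1 µM from −1.12 to 0.039 (Edar) and −3.76 to 0.48 (Slc6a2). The cause of these shifts was not tested. With 3 cultures and DMSO culture 2 at 10.1 M counts, the 50-count limit sets which low genes could enter.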

Other observations

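The 3 genes that met both limits but were left out by name had their lowest counts at 3 µM, where the limits had fixed at most 5. Col28a1, a beaded-filament collagen, had 195, 107 and 198 counts in DMSO cultures 1, 2 and 3, 35, 90 and 49 at 1 µM, 19, 25 and 16 at 1.5 µM and 1, 0 and 1 at 3 µM. Colgalt2, a collagen glycosyltransferase, had 264, 105 and 394 counts in DMSO, 87, 116 and 298 at 1 µM, 12, 25 and 137 at 1.5 µM and 1, 2 and 2 at 3 µM. Cyp26a1, which degrades retinoic acid, had 632, 159 and 144 counts in DMSO, 249, 306 and 177 at 1 µM, 45, 121 and 143 at 1.5 µM and 0 in each library at 3 µM.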
